A study of Homo sapiens with 12 samples.

Results

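A set of 10 genes that mark Hodgkin and Reed-Sternberg cells or act as immune checkpoint ligands was followed in the Hodgkin lymphoma cell line HD-MyZ. They were taken by gene symbol, as TNFRSF8, FUT4, TRAF1, CD40, CD70, CD80, CD274, PDCD1LG2, FSCN1 and GATA3. These 10 genes, read by 13 probes, stood among 18852 named genes and 48803 probes on an Illumina bead array, and each gene was represented by its brightest probe. Cells had been exposed for 24 hours to 10 µM perifosine and 5 µM sorafenib together (the combination), to 10 µM perifosine alone, to 5 µM sorafenib alone, or to neither drug (control). Each of these 4 groups had 3 arrays, lettered A, B and C. All groups came from the one line. Nothing in the labels says that the arrays of a group came from separate cultures, so the p-values measure the spread between these arrays. Perifosine is an alkylphospholipid that blocks recruitment of the kinase AKT to membranes, and sorafenib blocks RAF kinases as well as receptors such as those for VEGF and PDGF.

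Hodgkin and Reed-Sternberg cells are B cells that have lost most of their B-cell program and survive on signals from surrounding cells. They typically carry the receptors CD30 (the product of TNFRSF8) and CD40, the CD15 sugar epitope made by the enzyme of FUT4, and the actin-bundling protein fascin (FSCN1). They also display ligands that dampen or engage T cells, among them PD-L1 (CD274), PD-L2 (PDCD1LG2), CD70 and CD80. TRAF1 is an adaptor for CD30 and CD40 and a classical NF-kB target, and GATA3 is a T-cell transcription factor found in many Hodgkin cells. The HD-MyZ line has been described as myelomonocytic in type.

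Of the 10 genes, 5 gave a signal above background in HD-MyZ, and the line lacked a detectable signal for the defining marker CD30. The background level was set on each array at the 95th percentile of 431 probes for olfactory receptor genes, which lay between 386 and 418 intensity units on the 12 arrays. FUT4, TRAF1, CD70 and FSCN1 were above it on 12 of 12 arrays, as were 50.3% of all named genes. CD274 was above it on 11 arrays and lay just below on sorafenib array A, with 384 units against a background level of 391. PDCD1LG2 exceeded it on control array C alone. TNFRSF8, CD40, CD80 and GATA3 were above it on 0 of 12 arrays, as were 32.3% of all named genes. By this measure the line gave a signal for CD70, FSCN1, FUT4, TRAF1 and CD274 transcripts. The 4 members above background on all arrays and the 4 on none stood near the shares of all genes. TNFRSF8, CD80, PDCD1LG2 and GATA3 were each read by 1 probe, so a failing probe cannot be told apart from an absent transcript. A stricter level, the 99th percentile of the same probes, left CD274 above it on 7 arrays and TRAF1 on 11.

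**Figure D1:**
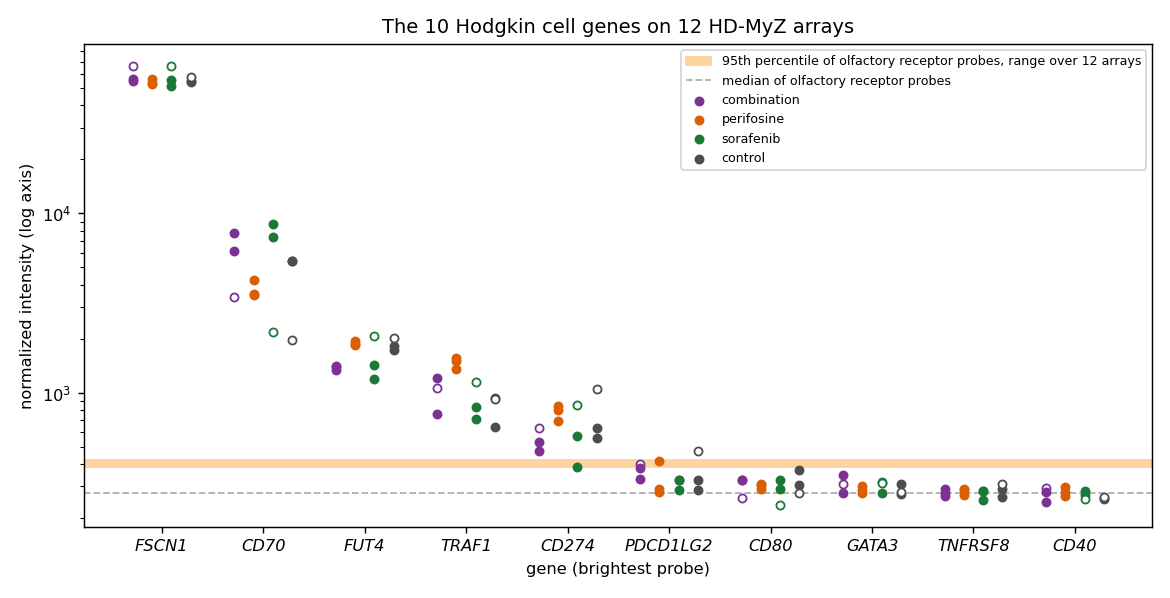
Normalized intensity (log axis) of the brightest probe of each of the 10 genes, with 1 point per array, coloured by treatment group, open for the 3 arrays that stood apart; the band is the range of the background level and the dashed line the median of the olfactory receptor probes. FSCN1, CD70, FUT4 and TRAF1 lie above the band on every array, CD274 lies above it on 11 arrays, and TNFRSF8, CD40, CD80 and GATA3 lie below it.

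The 12 arrays were deposited on a common scale, with intensities between 170 and 71906 units and array medians of about 322 units. In combination array A, sorafenib array B and control array C the correlation with the other arrays of the group was lower than the correlation among those others, by 0.00864, 0.0307 and 0.00886. These arrays were known to stand apart from earlier results of the same data, and the comparisons were fitted with all 12 arrays and again with the 9 that remain without them; values are from 12 arrays unless 9 are named. CD70 was the member that deviated most on them. Its log2 difference from the other arrays of its group was -1.01 on combination A, -1.88 on sorafenib B and -1.46 on control C, and only 3.66%, 1.0% and 1.08% of the 9479 genes above background deviated more on those arrays. CD274 lay higher there, by 0.35, 0.86 and 0.80 log2 units.

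The 250 bases before the transcription start are shown for CD274, TRAF1 and FUT4, the members whose combination and perifosine arrays did not overlap. The sequences are RefSeq promoters on GRCh38.p14, written 5′ to 3′ on the strand of the gene, and 6 of the 10 members had an entry. CD274 lies at chr9:5450292-5450541 on the plus strand, TRAF1 (the most upstream of its starts) at chr9:120929172-120929421 on the minus strand and FUT4 at chr11:94543671-94543920 on the plus strand. Capitals mark letters that match an interferon response element (2 copies of GAAA spaced by 2 bases, TTTC where it lies on the other strand) or a GAS element (TTCNNNGAA), the sites bound by interferon regulatory factors and STAT proteins.
CD274: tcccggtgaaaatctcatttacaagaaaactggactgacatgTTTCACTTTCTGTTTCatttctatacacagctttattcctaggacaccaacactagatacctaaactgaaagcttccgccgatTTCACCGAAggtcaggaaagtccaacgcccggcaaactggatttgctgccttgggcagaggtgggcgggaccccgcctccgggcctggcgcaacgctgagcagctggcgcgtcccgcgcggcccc
TRAF1: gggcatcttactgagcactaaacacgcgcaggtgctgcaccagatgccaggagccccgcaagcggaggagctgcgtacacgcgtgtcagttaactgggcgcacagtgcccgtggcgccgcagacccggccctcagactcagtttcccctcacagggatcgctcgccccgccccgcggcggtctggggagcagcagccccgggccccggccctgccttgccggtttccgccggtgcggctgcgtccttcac
FUT4: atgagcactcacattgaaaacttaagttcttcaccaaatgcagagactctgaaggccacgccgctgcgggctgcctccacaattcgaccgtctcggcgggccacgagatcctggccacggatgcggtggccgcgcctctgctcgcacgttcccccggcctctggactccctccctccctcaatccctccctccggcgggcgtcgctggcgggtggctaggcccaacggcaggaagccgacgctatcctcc
The CD274 window held 2 overlapping interferon response elements on the minus strand, 208 to 199 and 202 to 193 bases before the start, and 1 GAS element 125 to 117 bases before it. On both strands, an interferon response element was found in 3.02% of 35116 promoter windows of the same length and a GAS element in 6.57%. The AP-1 motif TGANTCA (6.57% of windows) and the NF-kB consensus (5.21%) were not found in these 3 windows, and no motif matched in those of TRAF1 or FUT4. A match of letters is a description of the sequence and gives no evidence of binding.

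In the fit to 12 arrays, none of the 10 members passed the threshold in any of 6 comparisons (limma, Benjamini-Hochberg adjusted p under 0.05 over all 18852 genes). The share of all genes that passed was 0.297% for perifosine against control, 2.25% for sorafenib against control, 1.82% for the combination against control and 2.2% for the combination against perifosine. It was 0% for the combination against sorafenib, and 0.0159% for the interaction, the effect of perifosine in the presence of sorafenib minus its effect without. At an unadjusted p under 0.05, limma gave 1 member for perifosine against control (TRAF1), beside 7.15% of all genes, and 0 for sorafenib (15.1%). It gave 1 for the combination against control (FUT4; 12.8%), 2 for the combination against perifosine (FUT4 and TRAF1; 12.5%), 0 for the combination against sorafenib (3.41%) and 1 for the interaction (TRAF1; 4.89%), so 0 to 2 of 10 members stood near the share of all genes. With 9 arrays, the calls were 1 member for perifosine (TRAF1, higher; 1.55% of all genes), 1 for sorafenib (CD70, higher; 4.65%) and 3 for the combination against perifosine (CD70 higher, FUT4 and CD274 lower; 6.92%). That fit called 0 members for the combination against control (5.9% of genes), against sorafenib (0%) and for the interaction (0.0106%). Members with an unadjusted p under 0.05 in the 9-array fit were 3 for perifosine (13% of all genes), 2 for sorafenib (18.3%), 2 for the combination against control (20.2%), 4 against perifosine (19.7%), 0 against sorafenib (5.58%) and 1 for the interaction (7.65%). The median log2 difference of the 10 members lay between -0.01 and 0.07 in the 6 comparisons of the 12-array fit, beside medians of all genes of 0.00.

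**Figure D2:**
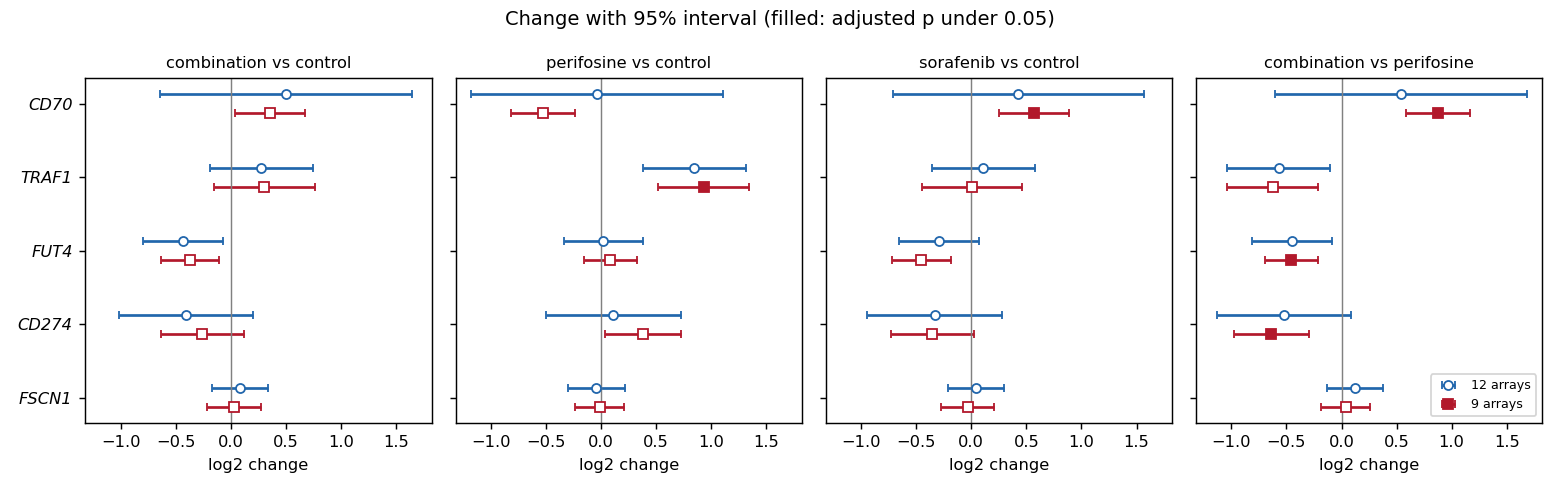
Log2 difference (x axis, log2 change) of the 5 genes with signal above background in 4 comparisons, with bars for the 95% confidence interval of the limma fit, from 12 arrays (circles) and from the 9 left without combination A, sorafenib B and control C (squares); filled symbols have an adjusted p under 0.05. The intervals of CD70 are the widest with 12 arrays (SE 0.52) and shorten with 9 (SE 0.13 to 0.15).

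TRAF1, the adaptor, was brightest in perifosine-treated cells. Its intensities on arrays A, B and C were 1067, 1198 and 756 units with the combination, 1357, 1493 and 1563 with perifosine, 836, 1145 and 716 with sorafenib, and 929, 639 and 916 in control cells. Every perifosine array lay above every array of the other groups. Group means in order were 1471 ± 104 with perifosine, 1007 ± 227 with the combination, 899 ± 221 with sorafenib and 828 ± 164 in control cells (SD, n = 3 each). Perifosine stood 0.85 log2 units above control (SE 0.21, 95% CI 0.38 to 1.31), and the adjusted p of 0.209 missed the threshold in limma. Without the 3 arrays that stood apart the difference was 0.93 (SE 0.19) and passed, with a limma adjusted p of 0.0315; over all alternatives tried the adjusted p ran between 0.0164 and 0.588. TRAF1 was lower with the combination than with perifosine by -0.57 log2 units (SE 0.21, limma adjusted p = 0.264; 9 arrays -0.62, limma adjusted p = 0.0743), and the neighbours below it in the order did not differ beyond their spread (combination minus sorafenib 0.17, 95% CI -0.30 to 0.63; sorafenib minus control 0.11, 95% CI -0.36 to 0.58). The interaction was -0.68 log2 units (SE 0.30, limma adjusted p = 0.992; 9 arrays -0.63, limma adjusted p = 0.65). A second TRAF1 probe lay near background, at 342 to 478 units, and averaged 423 ± 51.5 with perifosine and 413 ± 51.4 in control cells (SD, n = 3 each), so it did not show the perifosine difference of the brighter probe.

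The receptors CD30 and CD40 gave no signal that could be compared between treatments. The TNFRSF8 probe read 252 to 308 units on the 12 arrays and averaged 276 with the combination, 281 with perifosine, 272 with sorafenib and 286 in control cells. Both CD40 probes were below background on every array, the brighter one at 246 to 297 units. Its perifosine arrays (280, 265 and 297 units) lay above its control arrays (259, 255 and 261 units) without overlap, within the range of background signal. CD40 and TRAF1 were the 2 members without overlap in that comparison, where 17.5% of all genes had none.

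CD70, a ligand that engages CD27 on lymphocytes, was the most variable member. On arrays A, B and C it read 3416, 7755 and 6144 units with the combination, 3557, 4240 and 3514 with perifosine, 8683, 2176 and 7370 with sorafenib, and 5387, 5410 and 1959 in control cells. The lowest value of each of the combination, sorafenib and control groups came from the array that stood apart, and with them the 4 groups overlapped. Means in order were 6076 ± 3441 with sorafenib, 5772 ± 2193 with the combination, 4252 ± 1986 in control cells and 3770 ± 407 with perifosine (SD, n = 3 each). No neighbours in this order differed beyond their spread with 12 arrays: the combination minus sorafenib was 0.08 log2 units (95% CI -1.07 to 1.22), the combination minus control 0.50 (-0.64 to 1.65) and perifosine minus control -0.04 (-1.18 to 1.11). Sorafenib and the combination change places on the log2 scale, with means of 12.41 for the combination and 12.34 for sorafenib. The 9 remaining arrays were 3 with perifosine and 2 in each other group. Their values were 6144 to 7755 units with the combination, 3514 to 4240 with perifosine, 7370 to 8683 with sorafenib and 5387 to 5410 in control cells. Of these ranges, those of the combination and sorafenib alone overlapped. CD70 was then higher with the combination than with perifosine by 0.88 log2 units (SE 0.13, limma adjusted p = 0.0019) and higher with sorafenib than in control cells by 0.57 (SE 0.15, limma adjusted p = 0.0474). Over all alternatives these adjusted p-values ran between 0.0019 and 0.907 for the combination against perifosine and between 0.0474 and 0.977 for sorafenib against control. Perifosine minus control was -0.52 (SE 0.13, limma adjusted p = 0.082) in the 9-array fit. The arrays left out were those on which CD70 departed most from its group, so its spread narrows by that choice. The 9-array p-values of CD70 do not allow for this. With single arrays left out, sorafenib minus control was -0.06 without control C and 1.05 without sorafenib B, the lowest and the highest of these values.

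**Figure D3:**
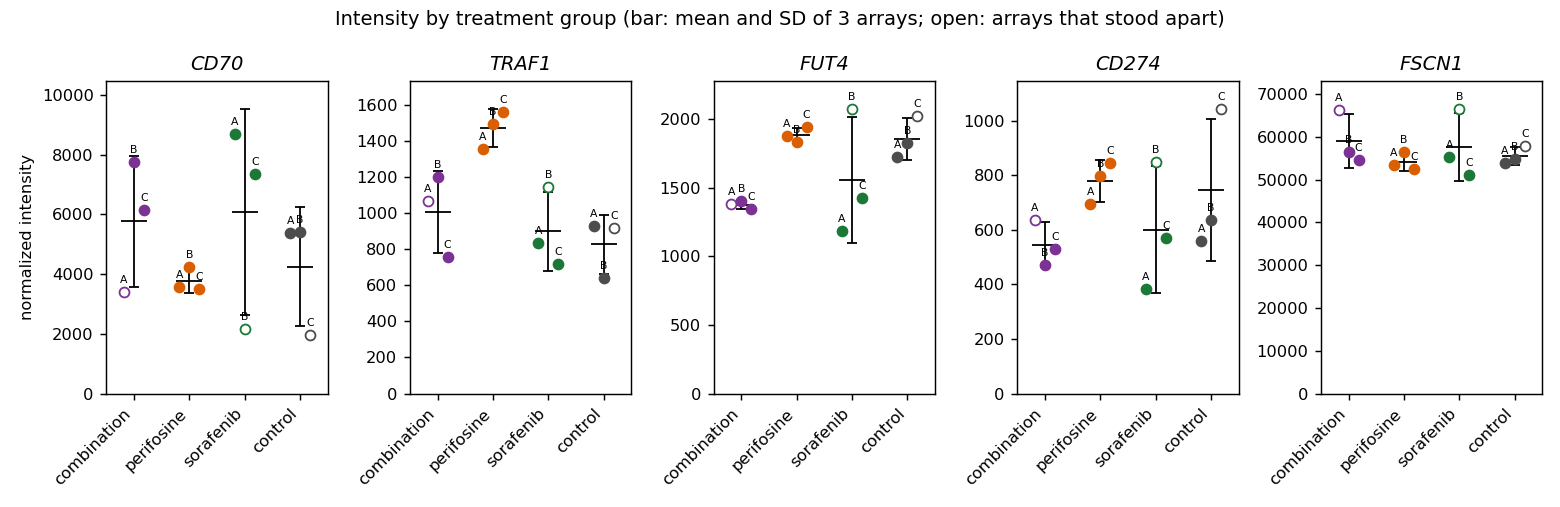
Normalized intensity (y axis, from 0) of the 5 genes with signal above background, by treatment group, with 1 point per array, lettered A to C, and the mean and SD of 3 arrays; open points are combination A, sorafenib B and control C. The perifosine arrays of TRAF1 (1357 to 1563 units) lie above all others, the combination arrays of FUT4 (1344 to 1406 units) lie below the perifosine and control arrays, and the open points hold the lowest CD70 value of their group.

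CD274, which encodes the PD-1 ligand PD-L1, had a low signal, with less in combination than in perifosine arrays. On arrays A, B and C it read 637, 473 and 529 units with the combination, 696, 797 and 847 with perifosine, 384, 849 and 570 with sorafenib, and 560, 638 and 1042 in control cells. All combination arrays lay below all perifosine arrays, while the sorafenib and control arrays overlapped both. Means in order were 780 ± 77.1 with perifosine, 746 ± 259 in control cells, 601 ± 234 with sorafenib and 546 ± 83.4 with the combination (SD, n = 3 each). Neighbours in this order did not differ beyond their spread: perifosine minus control was 0.11 log2 units (95% CI -0.50 to 0.72), sorafenib minus control -0.33 (-0.94 to 0.28) and the combination minus sorafenib -0.07 (-0.68 to 0.54). The combination minus perifosine was -0.52 (SE 0.28, limma adjusted p = 0.509) with 12 arrays. With 9 arrays it was -0.64 (SE 0.16, limma adjusted p = 0.0300) and passed, the only 1 of 20 alternatives in which it did. Over all alternatives the limma adjusted p ran between 0.0300 and 0.775. The highest CD274 values of the combination, sorafenib and control groups came from combination A, sorafenib B and control C, the arrays that stood apart. Leaving these arrays out lowers the combination mean and narrows the spread by that choice. The 9-array p-value of CD274 does not allow for this.

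PDCD1LG2, which encodes the second PD-1 ligand and neighbours CD274 in the genome, stayed near or below background. It read 400, 330 and 378 units with the combination, 288, 280 and 416 with perifosine, 286, 326 and 325 with sorafenib, and 327, 287 and 471 in control cells. The combination arrays lay above the sorafenib arrays without overlap, where 7.55% of all genes had none, but none of these 6 arrays was above the background level. CD80, a costimulatory ligand of CD28 and CTLA4, read 236 to 369 units, and averaged 303 with the combination, 302 with perifosine, 284 with sorafenib and 317 in control cells. No difference between treatments was detectable at these signals for either ligand.

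FUT4, the fucosyltransferase that makes the CD15 epitope, read lower on every combination array than on any perifosine or control array. On arrays A, B and C it read 1383, 1406 and 1344 units with the combination, 1876, 1838 and 1944 with perifosine, 1184, 2073 and 1423 with sorafenib, and 1726, 1828 and 2027 in control cells. The combination arrays overlapped neither the perifosine nor the control arrays, and sorafenib array B lay above every other array. Means in order were 1886 ± 53.6 with perifosine, 1860 ± 153 in control cells, 1560 ± 460 with sorafenib and 1378 ± 31.6 with the combination (SD, n = 3 each). FUT4 was the 1 member without overlap between the combination and control (19.3% of all genes), and 1 of 3, with TRAF1 and CD274, between the combination and perifosine (23.1%). No member was without overlap between sorafenib and control (17.7%). The log2 difference of the combination was -0.43 from control (SE 0.17, limma adjusted p = 0.277) and -0.45 from perifosine (SE 0.17, limma adjusted p = 0.246), and that of sorafenib from control was -0.29 (SE 0.17, limma adjusted p = 0.469). Neighbours in the order did not differ beyond their spread, with perifosine minus control at 0.02 (95% CI -0.34 to 0.39) and the combination minus sorafenib at -0.14 (95% CI -0.50 to 0.22).

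With sorafenib array B left out, FUT4 passed the threshold against control with sorafenib (-0.52 log2 units, limma adjusted p = 0.036) and with the combination (-0.43, limma adjusted p = 0.0303), and for the combination against perifosine (-0.45, limma adjusted p = 0.0234). FUT4 also passed in these 3 comparisons with array weights (limma adjusted p = 0.0433, 0.0451 and 0.0200 in that order). Such weights keep every array but count arrays that depart from their group for less. This result is therefore not separate from leaving out sorafenib B, and the weighted sorafenib difference from control was -0.41. Over all alternatives the adjusted p ran between 0.036 and 0.785 for sorafenib against control, between 0.0303 and 0.511 for the combination against control and between 0.0200 and 0.506 for the combination against perifosine. In the 9-array fit FUT4 was lower with the combination than with perifosine by -0.46 log2 units (SE 0.11, limma adjusted p = 0.0277) and missed the threshold for sorafenib against control (-0.45, limma adjusted p = 0.0558) and for the combination against control (-0.37, limma adjusted p = 0.101). A second FUT4 probe, matched to an expressed sequence tag, read 385 to 584 units and averaged 461 ± 67.3 with the combination, 450 ± 56.9 with perifosine, 486 ± 92.0 with sorafenib and 468 ± 22.0 in control cells (SD, n = 3 each), with all groups overlapping.

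FSCN1, which encodes fascin, a protein that bundles actin into filopodia, gave a signal near the top of the scale in all groups. Its intensities on arrays A, B and C were 66346, 56496 and 54551 units with the combination, 53334, 56421 and 52391 with perifosine, 55361, 66418 and 51046 with sorafenib, and 53933, 54871 and 57976 in control cells. All groups overlapped, and the highest array of the combination, sorafenib and control groups was the one that stood apart. Means in order were 59131 ± 6324 with the combination, 57608 ± 7928 with sorafenib, 55594 ± 2116 in control cells and 54049 ± 2108 with perifosine (SD, n = 3 each). The differences from control were -0.04 log2 units with perifosine (95% CI -0.30 to 0.21), 0.04 with sorafenib (-0.21 to 0.30) and 0.08 with the combination (-0.17 to 0.34), and in the 9-array fit -0.01, -0.03 and 0.03. The highest intensity of any probe on each array was 71906 units. GATA3, the T-cell factor, read 271 to 346 units on the 12 arrays, below background on all, and averaged 309 with the combination, 286 with perifosine, 302 with sorafenib and 285 in control cells.

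Of 13 measured ligands, receptors and adaptors of the CD30, CD40 and CD27 pathways, 6 were above background on all 12 arrays. TNFSF8, the CD30 ligand, averaged 322 units with the combination and 305 in control cells and was above background on 0 arrays; CD27, the receptor of CD70, was above it on 1. In limma 0 of the 13 passed in 5 of the comparisons. For the combination against perifosine, where 2.2% of all genes passed, 1 did, lower: TRAF6, a ubiquitin ligase of CD40 signalling. It averaged 1160 ± 108 units with the combination and 2040 ± 308 with perifosine (SD, n = 3 each), a log2 difference of -0.81 (SE 0.16, limma adjusted p = 0.0233; 9 arrays -0.79, limma adjusted p = 0.00397). With 9 arrays 4 of the 13 passed in at least 1 comparison. Of all genes, 1.55% then passed for perifosine and 4.65% for sorafenib against control. For the combination 5.9% passed against control and 6.92% against perifosine. TRAF6 was also higher with perifosine against control, and TRAF3 was lower with sorafenib and with the combination against control. TNFSF4 and TRAF5 were higher with the combination against control and against perifosine.

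Of 21 other genes of Hodgkin cells, 0 passed for perifosine against control (0.297% of all genes) and 1 for sorafenib against control (2.25%). For the combination, 1 passed against control (1.82%) and 3 against perifosine (2.2%), all lower with 12 arrays. PRDM1, the plasma cell factor BLIMP1, averaged 1065 ± 29.7 units with the combination, 2839 ± 368 with perifosine, 1080 ± 136 with sorafenib and 2114 ± 17.9 in control cells (SD, n = 3 each). Its log2 difference was -0.98 for sorafenib against control (SE 0.12, limma adjusted p = 0.00258), -0.99 for the combination against control (limma adjusted p = 0.00176) and -1.41 for the combination against perifosine (limma adjusted p = 0.000106). IL6, a cytokine secreted by Hodgkin cells, averaged 1024 ± 187 units with the combination and 2408 ± 619 with perifosine (SD, n = 3 each). It averaged 858 ± 230 with sorafenib and 1016 ± 286 in control cells, so the combination mean lay near that of control. The log2 difference of IL6 was -1.22 for the combination against perifosine (SE 0.27, limma adjusted p = 0.0426). The other gene, outside the rule for named genes and chosen after its values were seen, was JUNB, an AP-1 factor that is abundant in Hodgkin cells, at -1.21 log2 units (SE 0.20, limma adjusted p = 0.00871). In the 9-array fit 7 of the 21 passed in at least 1 comparison, a count that pools the 6 comparisons. For perifosine against control 1.55% of all genes passed in that fit. Higher were IL6 (0.99 log2 units, limma adjusted p = 0.0363) and JUNB (0.69, limma adjusted p = 0.0451) with perifosine against control, and ID2 (0.69, limma adjusted p = 0.00697) with the combination against control. Lower were 2 genes with sorafenib against control (4.65% of all genes passed, in either direction). For the combination 4 were lower against control (5.9%) and 5 against perifosine (6.92%). PRDM1 was among them each time (-1.01, -1.01 and -1.43 log2 units).

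None of the other lists around the members had a gene past the threshold in any of the 6 comparisons with 12 arrays. They were 17 costimulatory and coinhibitory ligands and receptors, 10 inducers and stabilisers of CD274 and 14 chromosomal neighbours of CD274 and PDCD1LG2. Besides these stood 9 other actin bundlers and 7 genes of the GATA family and its partners. The last list held 11 fucosyl- and other glycosyltransferases, not all of which, FUT8 among them, make the CD15 epitope. All 10 inducers and stabilisers of CD274, among them the interferon gamma receptor chains, JAK2, IRF1 and CMTM6, were above background on all 12 arrays. Their median log2 difference lay between 0.04 and 0.22 in the 6 comparisons with 12 arrays and between -0.02 and 0.16 with 9; for sorafenib against control it was 0.20 with 12 arrays and 0.08 with 9. The 9-array fit called 7 genes in 5 of these 6 lists, while single comparisons called 0% to 6.92% of all genes. They were JAK1, higher with perifosine and with the combination against control, IFNGR1 and CTLA4, higher with the combination against control, PLPP6, higher with sorafenib, RCL1, lower with sorafenib against control and with the combination against perifosine, and FUT8 and PLS3, higher with perifosine against control; CTLA4 was also higher with the combination than with perifosine.

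Markers of other cell types were set beside the members as a check of the labelled cell type. B-cell markers above background on all arrays were 0 of 11 measured, while 5 were above it on some arrays and 6 on none. MS4A1, the gene of CD20, was above it on 9. The summed intensity of the B-cell list was 3361 to 3540 units with the combination and 3325 to 3694 with perifosine. It was 3280 to 3667 with sorafenib and 3362 to 3645 in control cells. T-cell markers above background on all arrays were 0 of 9, while ZAP70 was above it on 8 arrays, LCK on 6 and the other 7 on none. Sums of the T-cell list were 2726 to 3058 units with the combination and 2774 to 2938 with perifosine. They were 2767 to 2846 with sorafenib and 2778 to 2922 in control cells. Among monocyte and macrophage markers 1 of 10 was above background on all arrays, CD68, a lysosomal protein, and among dendritic cell markers 1 of 9, CD83, an activation marker. The summed monocyte and macrophage list was 15322 to 16034 units with the combination, 20666 to 20951 with perifosine, 10845 to 15696 with sorafenib and 14834 to 16246 in control cells, highest in the perifosine arrays as TRAF1 was. CD68 made up most of this sum, with averages of 17887 units with perifosine and 12422 in control cells. The log2 difference of CD68 for perifosine against control was 0.53 (SE 0.15, limma adjusted p = 0.287) and missed the threshold. In the 9-array fit the CD68 difference was 0.50 and passed (limma adjusted p = 0.0364). The defining members of the list, CD14, CSF1R, CD163 and ITGAM, were at background on every array. The part of this list in the TRAF1 result was not tested. Epithelial markers above background on all arrays were 2 of 8, KRT19 and MUC1, with sums of 9408 to 12739 units with the combination, 7545 to 9314 with perifosine, 8894 to 11762 with sorafenib and 7386 to 9091 in control cells. CDH1, KRT8, KRT18 and ESRP1 were at background on every array.

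Of the fibroblast and stroma markers, 6 of 10 were above background on all arrays: COL1A1, COL1A2, DCN, THY1, PDGFRA and FAP, while LUM and PDPN were at background throughout. The summed intensity of the list was 72408 to 87762 units with the combination, 33807 to 39480 with perifosine, 73776 to 92481 with sorafenib and 39778 to 46913 in control cells. Its sums were higher on every combination and sorafenib array than on every perifosine and control array, and those of the epithelial list were higher on every combination array than on every perifosine or control array. FUT4 was lower and CD70 higher in mean log2 intensity with sorafenib against control and with the combination against control and against perifosine, and TRAF1 and CD274 were lower with the combination than with perifosine; the part of these lists in those results was not tested. COL1A2, a collagen chain, made up most of the sum, with 52353 ± 7216 units with the combination, 21637 ± 1570 with perifosine, 52761 ± 10410 with sorafenib and 24340 ± 5237 in control cells (SD, n = 3 each). In limma 4 of the 10 passed, higher, for sorafenib against control: COL1A1, COL1A2, DCN and THY1 (2.25% of all genes passed). For the combination 3 passed, higher, against control (1.82%) and against perifosine (2.2%): COL1A2, DCN and THY1. PDGFRA, a growth factor receptor, went the other way, with log2 differences from control of -0.57 with sorafenib (limma adjusted p = 0.22) and -0.73 with the combination (limma adjusted p = 0.136). With 9 arrays it passed, lower, at -0.83 (limma adjusted p = 0.00578) and -0.82 (limma adjusted p = 0.005), and with the combination against perifosine at -0.49 (limma adjusted p = 0.0358), while COL1A1, COL1A2, DCN and THY1 were higher in all 3 comparisons.

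**Figure D4:**
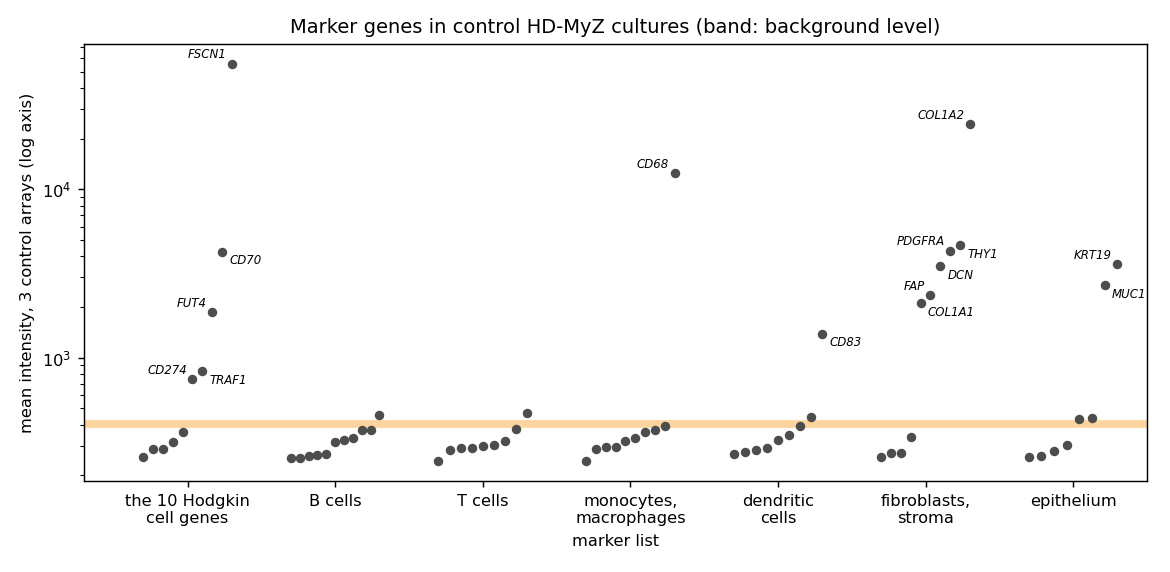
Mean intensity in the 3 control arrays (log axis) of each gene of the Hodgkin set and of 6 marker lists for other cell types, with a band for the background level; genes above background on all 12 arrays, and CD274, are named. The B-cell and T-cell lists stay at or near the band, while 6 of 10 fibroblast and stroma markers lie above it.

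For each member above background on all arrays, the genes with the most similar pattern were found by the root mean square difference of log2 intensities, each centred on its mean over 12 arrays, among 9372 named genes above background. Nearest to FUT4, whose own spread by this measure was 0.261, were RBM12 (0.0949), PHLPP2 (0.0972) and TRNT1 (0.0977). Nearest to TRAF1 (own spread 0.404) were WWTR1 (0.206), PPM1L (0.217) and MYLK (0.238). WWTR1 had the same highest group as TRAF1, with 3521 ± 87.3 units in perifosine cells and 1864 ± 120 in control cells (SD, n = 3 each). Nearest to CD70 (own spread 0.665) were PSMB9 (0.168), TMEM205 (0.219) and HCFC1R1 (0.249), and PSMB9 was lowest within its group on combination A (870 units), sorafenib B (458 units) and control C (527 units), as CD70 was. Nearest to FSCN1 (own spread 0.115) were EIF4A2 (0.0625), RFX3 (0.0653) and ZNF7 (0.0666). These distances are descriptions over 12 arrays that share the same 3 arrays that stood apart.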

How the data were processed

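Total RNA of 12 HD-MyZ samples was labelled with biotin and hybridised to Illumina bead arrays. The deposited values were intensity values per probe in the authors' value table, processed with BeadStudio per the submitters' processing notes (version not given in the sources used here). From the values, the arrays had been put on one distribution: sorted columns differed by at most 2.35%, and no background had been subtracted. In a second table, 24 columns matched no sample's labels and were not used, so no detection p-values were available.

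Of 48803 probes, 28098 had 1 gene symbol, 13 had several and 20692 were unnamed here; 28059 of the named probes matched a current gene by Entrez ID and 39 did not. Where a gene had several probes (6132 genes), the brightest on average was used. Log2 intensities of 18852 genes were fitted with 4 group means in limma 3.58.1 (R 4.3.3), with 6 contrasts, Benjamini-Hochberg adjustment over all genes and a threshold of 0.05. The script was tested on simulated data. The number of arrays limits the precision. Members and lists were chosen with earlier results of these data known. Named were all members, of each list at most 2 called genes per contrast with the largest log2 difference, and for each member above background on 12 arrays the 3 genes nearest in pattern. Alternatives were each array left out, 9 arrays, a block for the replicate letter, the mean of all probes, normexp, quantile normalization, a filter on dim genes, array weights, each pair of groups alone and other background levels. Deviations of same-lettered arrays from their group means correlated between -0.57 and 0.49 across genes. Those with perifosine, the group without an array that stood apart, lay between -0.06 and 0.16. The 3 arrays that stood apart carry different letters and enter the group means, so these correlations cannot show whether the letters are pairs. The main fit did not take the letters as pairs. Promoter sequences and gene names came from RefSeq tables (GRCh38.p14).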

Additional observations from a re-analysis of the deposited data

How the results depend on the processing

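The number of members past the threshold was 0 in all 6 comparisons with 12 arrays. With the 9 arrays it was 1 for perifosine against control, 1 for sorafenib against control and 3 for the combination against perifosine. With array weights it was 1 in each of these 3 comparisons (1.85%, 6.63% and 6.93% of all genes passed) and 1 for the combination against control (6.26%): TRAF1 for perifosine (0.94 log2 units, limma adjusted p = 0.0164) and FUT4 in the others (-0.41, -0.46 and -0.41 for sorafenib against control, the combination against perifosine and the combination against control). With the combination and perifosine groups fitted alone it was 1, FUT4 (limma adjusted p = 0.0322; 4.47% of all genes). With single arrays left out it ran from 0 to 1 for sorafenib against control, the combination against control and the combination against perifosine, the 1 being FUT4 without sorafenib B (3.02%, 5.55% and 5.57% of all genes), and was 0 in the other comparisons. Of 595 alternative values for the 5 genes with signal, 36 had the other sign, none of them called, and 13 passed where the 12-array fit did not.

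The number of genes called over the whole array ranged over the alternatives from 11 to 349 for perifosine against control (56 with 12 arrays), from 10 to 1249 for sorafenib (425), from 89 to 1181 for the combination against control (343), from 215 to 1306 for the combination against perifosine (414) and from 1 to 15 for the interaction (3). It was 0 throughout for the combination against sorafenib. Members above background on all arrays numbered 4, against 3 with the 99th percentile and 5 with the mode of all probes plus 2 SD.

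With the letters as a replicate block, 0 members passed in each comparison (TRAF1 0.85 log2 units for perifosine against control, limma adjusted p = 0.333), and 37, 335, 274, 349, 0 and 2 genes passed in the order perifosine, sorafenib and combination against control, combination against perifosine, combination against sorafenib and interaction. The pairing of letters was not established.

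Signal over background limits TNFRSF8, CD40, CD80, GATA3 and PDCD1LG2, whose differences cannot be read at this signal. For CD274 and the second probes of TRAF1 and FUT4, the background in the intensities shrinks differences. The cause of the 3 arrays standing apart was not tested.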

Other observations

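CTLA4, the inhibitory T-cell receptor that binds CD80, gave a strong signal in this line, although the T-cell markers did not, and it was singled out after its values were seen. It averaged 10463 ± 1057 units with the combination, 6579 ± 1140 with perifosine, 10157 ± 1852 with sorafenib and 6726 ± 719 in control cells (SD, n = 3 each). The log2 difference of the combination was 0.64 from control (SE 0.16, limma adjusted p = 0.0832; 9 arrays 0.65, limma adjusted p = 0.0336) and 0.68 from perifosine (limma adjusted p = 0.0597; 9 arrays 0.61, limma adjusted p = 0.0265). Sorafenib alone differed from control by 0.58 (limma adjusted p = 0.0958), and with 9 arrays by 0.54 (limma adjusted p = 0.0811). The combination differed from sorafenib by 0.05 with 12 arrays and 0.11 with 9. ICOS and ICOSLG, a costimulatory receptor and its ligand, were also above background on all 12 arrays, at a much lower signal than CTLA4. ICOS read 478 to 794 units and ICOSLG 466 to 917, with their lowest values close to the background level.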
